A study of Mus musculus with 12 samples.

Results

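The genes described here are 39 cell cycle and DNA replication genes, listed by name and divided by role into 14 genes of DNA replication, 9 genes that drive the passage from G1 into S phase, 12 genes of mitosis and proliferation, and 4 inhibitors of cyclin-dependent kinases. Each was measured by the brightest of the array's probe sets that carry that gene's symbol alone. Of the 39 genes, 38 had such a probe set and all 38 passed the filter on dim genes, out of 19938 genes with one on the array and 12988 that passed the filter. Of the 38, 37 were above the filter level on all 12 arrays, and Cdkn2c was above it on the 6 retinoic acid arrays only. The mitotic cyclin Ccnb1 was not analysed here.

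The samples were 12 Affymetrix arrays of total RNA from R1 cells, a male mouse embryonic stem cell (ESC) line, in which Smarcd1 had been knocked down. Smarcd1 encodes BAF60A, an accessory subunit of the BAF (SWI/SNF) chromatin remodelling complex. The differentiated groups were grown for 4 days in 1 µM retinoic acid without leukemia inhibitory factor (LIF) and comprised 4 arrays of the knockdown line KD1 and 2 arrays of cells infected with a scrambled control. The undifferentiated groups were kept in LIF and comprised 2 arrays each of the knockdown lines KD2 and KD1 and of scrambled control cells. All cells were described as clones grown on mouse embryonic fibroblast feeders treated with mitomycin, so each knockdown line and the control may represent few clones. Values are log2 intensities, and every difference below is a difference of group means on that scale with its standard error (SE). A gene was called changed when limma's moderated test gave a Benjamini-Hochberg adjusted p under 0.05 over all 12988 genes. The titles number the arrays as biological replicates but do not say how they were prepared, so these p-values measure the spread between arrays, which may be partly technical.

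A cell commits to division when D-type cyclins with Cdk4 or Cdk6, and then E-type cyclins with Cdk2, phosphorylate the retinoblastoma protein and free E2F transcription factors. E2F factors drive the genes that load and fire replication origins and that supply nucleotides. In G2 and mitosis the cyclin A and B kinases, Foxm1, Plk1 and the Aurora kinases take over. Mouse ESCs are known for a short G1 phase with high cyclin E activity and low levels of D-type cyclins and of the Ink4 inhibitors, and for a longer G1 phase after differentiation. Culture lysates mix ESC progeny, cells at different cycle phases and feeder cells. In such bulk samples fewer cells of a type and less RNA per cell cannot be told apart.

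Smarcd1 itself read 6.36, 6.61, 6.50 and 6.44 in KD1 cells after retinoic acid, against 8.84 and 8.64 in scrambled cells after retinoic acid. In undifferentiated cells its values were 8.56 and 7.16 for KD2 and 7.75 and 7.78 for KD1, against 8.67 and 8.68 for scrambled cells. The array labelled KD2 replicate 1 thus went against its label, and each direction drawn from the KD2 arrays below is that of arrays labelled KD2. A list of 12 pluripotency markers averaged 10.42 to 10.84 in KD2, 10.39 to 10.57 in KD1 and 9.60 to 10.16 in scrambled ESCs, with all 12 above the filter level on each of those arrays. After retinoic acid the same list averaged 6.41 to 7.22 in KD1 cells and 6.60 to 6.66 in scrambled cells. A list of 17 extraembryonic endoderm markers averaged 9.40 to 9.90 in KD1 cells after retinoic acid, against 7.09 to 7.15 in scrambled cells, and 16 of the 17 had a higher mean in KD1 cells. Afp, the marker that did not, had group means of 3.40 to 3.51, below the filter level. In ESCs the endoderm list averaged 5.57 to 5.87 in KD2, 6.72 to 6.86 in KD1 and 5.93 to 5.96 in scrambled cells. In KD1 against scrambled ESCs 6 of its 16 tested markers were called higher, or 37.5%, beside 0.909% of all tested genes. A list of 20 feeder or fibroblast markers averaged 6.11 to 6.51 in KD1 cells and 6.80 to 7.19 in scrambled cells after retinoic acid, and 6.06 to 6.34 in KD2, 5.83 to 6.57 in KD1 and 6.75 to 6.82 in scrambled ESCs. A list of 11 neural markers averaged 4.92 to 5.22 in KD1 cells and 5.68 to 5.90 in scrambled cells after retinoic acid. These lists move with the groups compared below, and their part in the cell cycle values was not tested. The median of the 706 tested genes of chromosome 8 was -0.31 in KD1 against scrambled cells after retinoic acid. In KD1 against scrambled ESCs it was -0.30. The medians of the other autosomes and of chromosome X lay between -0.07 and 0.18 and between -0.09 and 0.05 in those comparisons. Mcm5, Cdt1 and Gins2 are the members on chromosome 8, and the part of that shift in their values was not tested. The 4 tested genes of chromosome Y had medians of -2.16 and -3.04 in the same comparisons, and -2.22 in KD2 against scrambled ESCs. No member lies on chromosome Y, and the source of that difference between the lines was not tested.

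Retinoic acid changed more of these genes than the knockdown did, as it did over all tested genes. In KD1 cells against KD1 ESCs, 7 of the 38 genes rose and 11 fell, or 47.4% of them, beside 50.8% of all tested genes (29.4% risen and 21.4% fallen). In scrambled cells 9 rose and 5 fell, or 36.8%, beside 39.1% of all tested genes (22.4% risen and 16.7% fallen); with every array centred on its median the split was 8 risen and 7 fallen. After retinoic acid, KD1 against scrambled cells gave 8 fallen and 0 risen, or 21.1%, beside 22.7% of all tested genes (11.5% fallen and 11.2% risen). In ESCs, KD2 against scrambled gave 3 fallen, or 7.89%, beside 10.0% of all tested genes (7.15% fallen and 2.88% risen), and KD1 against scrambled gave 2 fallen, or 5.26%, beside 2.32% (1.41% fallen and 0.909% risen). The risen genes of both retinoic acid counts include Cdkn2c, which passed the filter through the arrays where it is high. The total share of members called was near the background in most comparisons. What stood out was which members changed and that, with all arrays, the calls in the knockdown cells were all falls. The 3 KD2 falls (Cdt1, Ccne2 and Cdk1) lay below both scrambled ESC arrays on both KD2 arrays. Over all members those 2 arrays disagreed. The median difference from scrambled ESCs was -0.50 on replicate 1 and 0.29 on replicate 2, the array with the low Smarcd1 value. The comparisons share arrays with each other, so their values are given side by side and not as independent results.

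**Figure D1:**
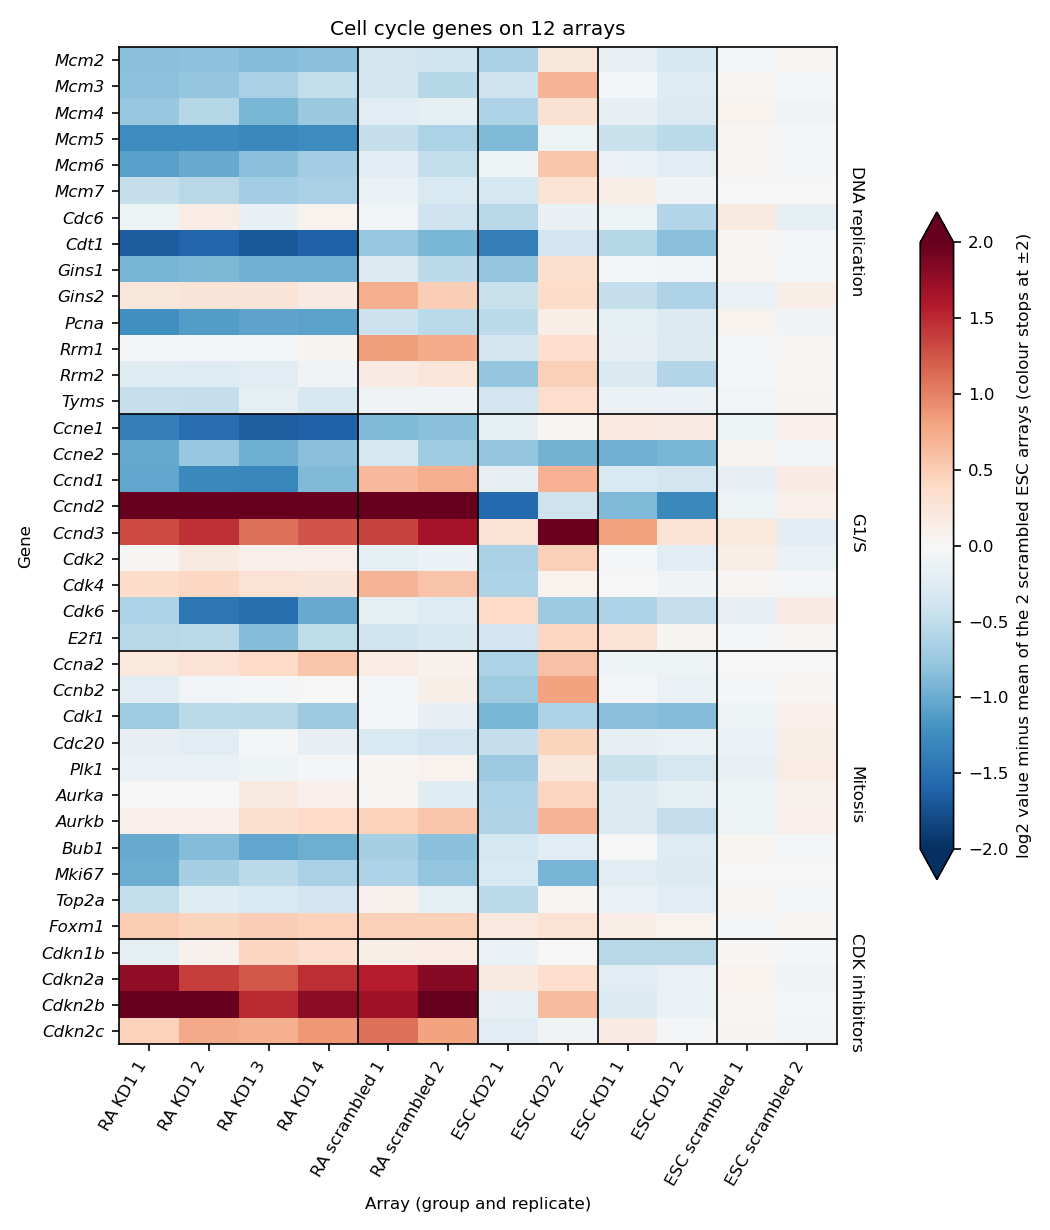
Each row is one of the 38 measured genes, grouped by role, and each column one of the 12 arrays, with colour giving the log2 value minus the gene's mean over the 2 scrambled ESC arrays, and colours that stop at 2 either way. The inhibitors Cdkn2a and Cdkn2b and the cyclin Ccnd2 were high on the 6 retinoic acid arrays, and KD2 replicate 2 lay above KD2 replicate 1 for 35 of the 38 genes.

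The promoters of 30 of the 39 genes were found in a RefSeq table (GRCm38.p6) of 300-base windows, reaching from 250 bases before to 50 bases after each transcription start. The words known from such promoters and searched on both strands were an E2F word (any of TTTCCCGC, TTTCGCGC, TTTGCCGC and TTTGGCGC), the cell cycle homology region word (CHR, TTTGAA), and CCAAT, the core of the site bound by NF-Y. An E2F word stood in 6 of the 11 replication promoters found (Mcm3, Mcm5, Mcm6, Mcm7, Cdc6 and Cdt1), or 54.5%, beside 2.6% of the windows of all 27025 genes. It also stood in 1 of 9 mitotic promoters (Cdk1), 1 of 6 G1/S promoters (Cdk2) and 1 of 4 inhibitor promoters (Cdkn2a). The CHR word stood in 7 of the 9 mitotic promoters, or 77.8%, beside 20.2% of all genes and 1 of 11 replication promoters. CCAAT stood in 9 of 9 mitotic and 8 of 11 replication promoters, beside 41.1% of all genes. The 170 bases before the start of 6 genes are printed 5′ to 3′ on the gene's own strand to show these arrangements, with matches to any of the words, on either strand, in capitals. Mcm5 and Mcm6 stand for the replication genes, Cdk1 carries both an E2F and CHR words, and Cdc20 and Ccnb2 stand for the mitotic genes. Cdkn2a is printed as the only inhibitor with an E2F word, by the one of its 2 windows that holds it. Cdkn1b, Cdkn2b and Cdkn2c held none, so Cdkn2a does not stand for the inhibitors. Which of the gene's transcripts starts in that window was not determined.
Mcm5, chr8:75109339-75109508, plus strand: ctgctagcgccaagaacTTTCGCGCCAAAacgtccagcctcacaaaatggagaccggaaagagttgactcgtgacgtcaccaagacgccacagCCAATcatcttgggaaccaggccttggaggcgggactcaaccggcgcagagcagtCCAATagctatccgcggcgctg
Mcm6, chr1:128359706-128359875, minus strand: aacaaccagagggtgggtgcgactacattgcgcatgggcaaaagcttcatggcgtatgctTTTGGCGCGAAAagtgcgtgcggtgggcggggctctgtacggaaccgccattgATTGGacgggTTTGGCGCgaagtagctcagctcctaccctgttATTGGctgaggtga
Cdk1, chr10:69352913-69353082, minus strand: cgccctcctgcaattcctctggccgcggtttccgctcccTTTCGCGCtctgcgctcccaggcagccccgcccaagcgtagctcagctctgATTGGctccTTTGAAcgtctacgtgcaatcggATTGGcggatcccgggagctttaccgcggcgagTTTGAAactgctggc
Cdc20, chr4:118437344-118437513, minus strand: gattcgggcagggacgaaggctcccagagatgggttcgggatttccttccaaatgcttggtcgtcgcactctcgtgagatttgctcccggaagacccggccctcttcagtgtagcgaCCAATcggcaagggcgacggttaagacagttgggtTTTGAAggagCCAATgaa
Ccnb2, chr9:70421555-70421724, minus strand: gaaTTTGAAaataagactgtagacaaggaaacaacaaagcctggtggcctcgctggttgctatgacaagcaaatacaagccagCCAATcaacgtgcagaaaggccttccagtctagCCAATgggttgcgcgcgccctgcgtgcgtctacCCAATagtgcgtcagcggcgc
Cdkn2a, chr4:89294620-89294789, minus strand: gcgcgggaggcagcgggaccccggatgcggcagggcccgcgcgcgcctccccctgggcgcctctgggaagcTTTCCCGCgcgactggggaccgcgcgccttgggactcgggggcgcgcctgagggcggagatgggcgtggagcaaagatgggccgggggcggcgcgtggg
In Mcm5 and in Mcm6 an E2F word overlaps the reverse complement of another, starting 153 and 110 bases before the transcription start, and Mcm6 holds another 47 bases before it. In Cdk1 the E2F word starts 131 bases, and the CHR words 71 and 15 bases, before the start. The CHR word of Cdc20 starts 18 bases before the start, next to a CCAAT, and those of Ccnb2 start 167 bases before and 4 bases after it, the second outside the printed stretch. In the printed window of Cdkn2a the E2F word starts 99 bases before the start, and the gene's other window holds none. A match describes these letters and is not a shown binding site.

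The replication genes as a class lay lower in KD1 cells than in scrambled cells after retinoic acid, most of all Cdt1, Rrm1, Mcm5 and Pcna. Their median difference was -0.50, beside -0.02 over all tested genes, and 13 of the 14 differences were below 0. All 4 KD1 arrays lay below both scrambled arrays for 12 of the 14 genes, and for 0 of 14 above them, beside 27.5% of all tested genes below and 26.5% above. Past the test were 4 falls of 14, beside 11.5% of all tested genes fallen. Without the 2 arrays labelled KD2, which disagree with each other on these genes, 11 of the 14 fell, or 78.6%, beside 18.6% of all tested genes fallen.

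Cdt1, which loads the MCM helicase onto replication origins, read 9.20, 9.28, 9.18 and 9.24 in KD1 cells after retinoic acid, against 10.11 and 9.95 in scrambled cells. The difference was -0.80 ± 0.22 (SE, adjusted p = 0.0208). Mcm5, a subunit of that helicase whose promoter is printed above, read 8.96, 8.97, 8.92 and 8.96, against 9.74 and 9.58 in scrambled cells, a difference of -0.71 ± 0.18 (SE, adjusted p = 0.0156). Neither gene's groups overlapped, and both genes lie on chromosome 8, whose median fell by 0.31. Pcna, the sliding clamp of the replicative polymerases, read 9.91, 10.01, 10.08 and 10.06 in KD1 cells, against 10.69 and 10.58 in scrambled cells, a difference of -0.62 ± 0.17 (SE, adjusted p = 0.0217). Rrm1, the large subunit of ribonucleotide reductase, read 9.97, 9.96, 9.99 and 10.07, against 10.85 and 10.75, a difference of -0.80 ± 0.17 (SE, adjusted p = 0.00551). Pcna and Rrm1 lie on other chromosomes and their groups did not overlap either. The array holds a second probe set of the Pcna symbol with near-identical values. Whether the 2 probe sets are separate measurements of that gene was not tested.

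The other helicase subunits had differences of -0.55 for Mcm4, -0.54 for Mcm6, -0.46 for Mcm2, -0.38 for Mcm7 and -0.21 for Mcm3, none past the test. Mcm6, the other replication gene whose promoter is printed, read 9.17, 9.24, 9.41 and 9.55 in KD1 cells and 10.02 and 9.76 in scrambled cells, with adjusted p = 0.0547. The GINS subunits, which join the helicase at the firing origin, had differences of -0.54 (Gins1) and -0.39 (Gins2). Rrm2, the small subunit of ribonucleotide reductase, had a difference of -0.40, and Tyms, which makes thymidylate, one of -0.29. Cdc6, the partner of Cdt1 in helicase loading, was the one replication gene with a positive difference, at 0.23 ± 0.19 (SE, adjusted p = 0.474).

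Across retinoic acid treatment more replication genes fell than rose in KD1 cells. In KD1 cells 7 of the 14 fell and 1 rose, with a median of -0.58, beside 21.4% of all tested genes fallen. In scrambled cells 1 fell and 1 rose, with a median of -0.30, beside 16.7% of all tested genes fallen. Without the arrays labelled KD2, 9 fell and 1 rose in KD1 cells, and 6 fell and 2 rose in scrambled cells, beside 27.4% and 22.8% of all tested genes fallen. With all arrays no replication gene passed the test of the difference between the 2 changes. Cdt1 fell by 0.93 in KD1 cells, against ESC values of 10.29 and 10.03, and fell by 0.83 in scrambled cells, against ESC values of 10.89 and 10.83. Pcna changed by -0.89 ± 0.17 in KD1 cells (SE, adjusted p = 0.00119), with ESC values of 10.95 and 10.85, and the difference in scrambled cells was -0.49 ± 0.20 (SE, adjusted p = 0.0707), with ESC values of 11.20 and 11.05. The other falls in KD1 cells were Gins1 (-0.89), Mcm5 (-0.77), Mcm6 (-0.74), Mcm7 (-0.62) and Mcm2 (-0.60). Gins1, for instance, read 7.24, 7.27, 7.20 and 7.21 in KD1 cells after retinoic acid and 8.13 and 8.12 in KD1 ESCs, and the groups did not overlap.

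Rrm1 and Gins2 went the other way. Rrm1 rose by 0.79 ± 0.20 in scrambled cells (SE, adjusted p = 0.00804), reading 10.85 and 10.75 after retinoic acid and 9.99 and 10.03 in ESCs. In KD1 cells its change was 0.21 ± 0.17 (SE, adjusted p = 0.330), from the KD1 values above and ESC values of 9.84 and 9.73. Gins2 rose by 0.76 ± 0.20 in KD1 cells (SE, adjusted p = 0.00727), reading 7.74, 7.78, 7.77 and 7.68 after retinoic acid and 7.05 and 6.91 in ESCs. Its change in scrambled cells was 0.62 ± 0.23 (SE, adjusted p = 0.0512), with values of 8.25 and 8.02 after retinoic acid and 7.39 and 7.65 in ESCs.

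In ESCs no replication gene was called in KD1 against scrambled cells by limma (3 of 14 at an unadjusted p under 0.05), although both KD1 arrays lay below both scrambled arrays for 10 of the 14 genes and above them for 0, beside 27.2% of all tested genes below and 25.5% above. The median difference was -0.22, beside 0.00 over all tested genes. Without the arrays labelled KD2, Mcm5, Cdt1 and Gins2 were called lower, and 15.8% of all 38 genes were called, beside 8.14% of all tested genes (4.93% lower and 3.21% higher). These 3 are the replication members on chromosome 8. Cdt1 was the one replication gene called in arrays labelled KD2, with 9.48 and 10.47, against 10.89 and 10.83 in scrambled ESCs and a difference of -0.88 ± 0.25 (SE, adjusted p = 0.0477). The chromosome 8 median there was -0.32.

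**Figure D2:**
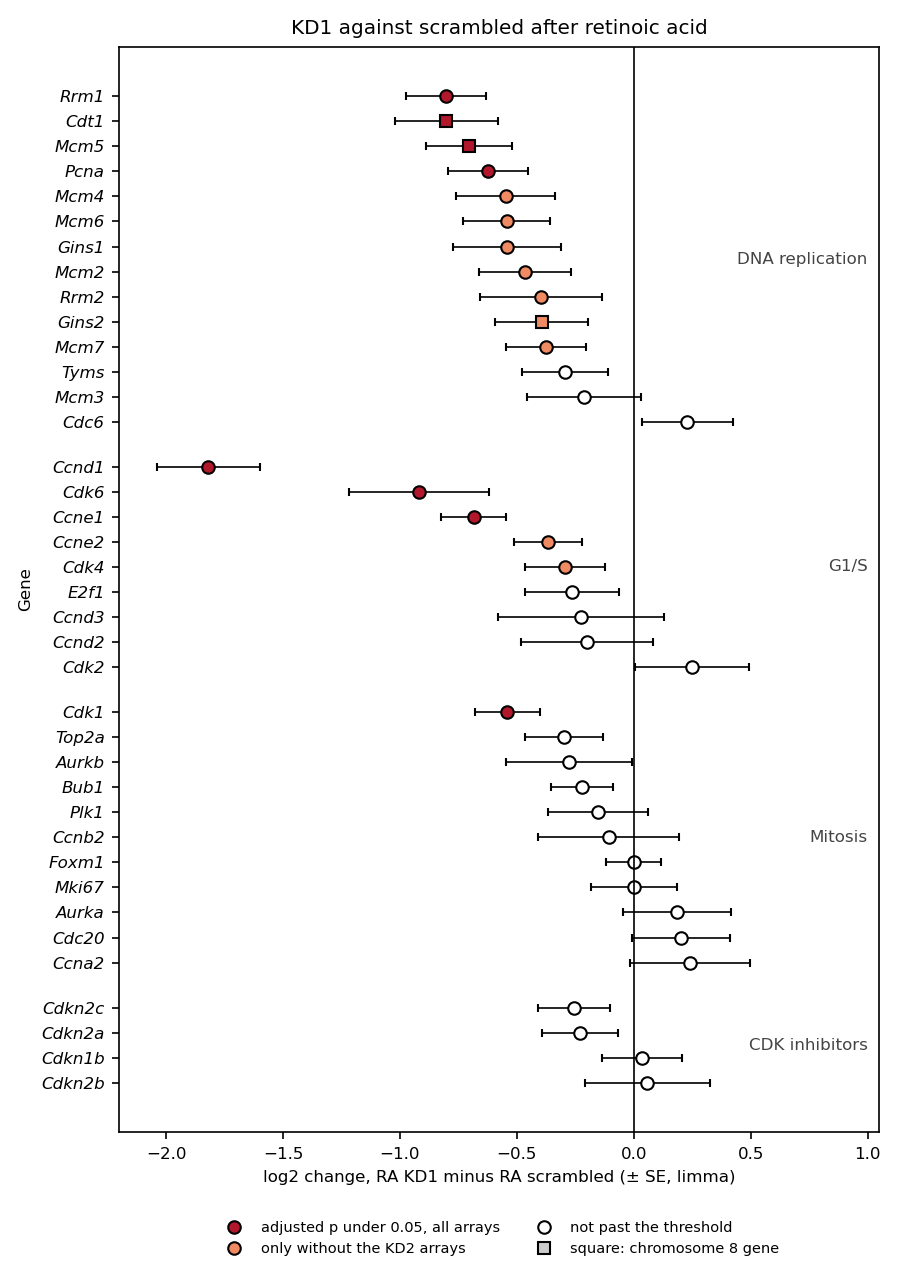
Points give the log2 difference of KD1 from scrambled cells after retinoic acid for each of the 38 genes, with bars for the standard error of the fit, grouped by role, and colour marks the genes called with all 12 arrays (8) and those called only without the 2 arrays labelled KD2, while squares mark genes of chromosome 8. All 17 genes called in the fit without those arrays lie below 0, and Ccnd1 lies lowest at -1.82.

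The cyclins and kinases of G1 and S phase held the members with the largest changes. After retinoic acid Ccnd1, Ccne1 and Cdk6 were lower in KD1 than in scrambled cells, while Ccnd2 and Ccnd3 were not called different. In scrambled cells retinoic acid raised all 3 D-type cyclins and Cdk4 and lowered both E-type cyclins. In KD1 cells it raised Ccnd2 and lowered Ccnd1, Ccne1 and E2f1, and without the arrays labelled KD2 Ccnd3 and Cdk4 were also called higher and Cdk6 lower. The G1/S median in KD1 against scrambled cells was -0.30.

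Ccnd1, the cyclin D1 partner of Cdk4 and Cdk6, read 8.41, 8.17, 8.15 and 8.57 in KD1 cells after retinoic acid, against 10.10 and 10.18 in scrambled cells. The difference was -1.82 ± 0.22 (SE, adjusted p = 0.000123), and the groups stood far apart. The ESC arrays read 9.29 and 10.16 for KD2, 9.15 and 9.09 for KD1 and 9.29 and 9.62 for scrambled cells. The change of Ccnd1 with retinoic acid was -0.79 ± 0.22 in KD1 cells (SE, adjusted p = 0.0106) and 0.69 ± 0.26 in scrambled cells (SE, adjusted p = 0.0499). The 2 changes differed by -1.49 ± 0.34 (SE, adjusted p = 0.0200). All retinoic acid KD1 arrays lay below, and all retinoic acid scrambled arrays above, the ESC arrays of their own line.

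Ccne1, cyclin E1, the partner of Cdk2 at S phase entry, read 8.72, 8.57, 8.44 and 8.46 in KD1 cells after retinoic acid, against 9.21 and 9.26 in scrambled cells, a difference of -0.69 ± 0.14 (SE, adjusted p = 0.0036). In ESCs it read 9.90 and 10.13 in KD2, 10.28 and 10.25 in KD1 and 9.99 and 10.19 in scrambled cells. It fell by 1.72 in KD1 cells (SE 0.14, adjusted p = 1.81e-06) and by 0.85 in scrambled cells (SE 0.16, adjusted p = 0.0013). Both lines fell without overlap, and the changes differed by -0.86 ± 0.21 (SE, adjusted p = 0.0273). Ccnd1 and Ccne1 were the 2 of 38 genes, or 5.26%, called for a difference between the retinoic acid changes, beside 7.88% of all tested genes (3.61% lower and 4.27% higher).

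Ccne2, cyclin E2, read 6.21, 6.47, 6.26 and 6.40 in KD1 cells after retinoic acid and 6.89 and 6.52 in scrambled cells, with a difference of -0.37 ± 0.15 (SE, adjusted p = 0.0988). In ESCs it read 6.46 and 6.28 in KD2 and 6.27 and 6.31 in KD1 cells, against 7.29 and 7.18 in scrambled cells. It fell in KD2 by 0.87 (SE 0.17, adjusted p = 0.00846) and in KD1 by 0.94 (SE 0.17, adjusted p = 0.0181). All 4 ESC arrays labelled KD1 or KD2 lay below both scrambled arrays, also KD2 replicate 1, whose Smarcd1 value was near the scrambled level. Its change with retinoic acid was -0.53 ± 0.17 in scrambled cells (SE, adjusted p = 0.0262) and, in KD1 cells, 0.04 ± 0.15 (SE, adjusted p = 0.834).

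Ccnd2, cyclin D2, had the largest rise of any member with retinoic acid. It read 11.18, 11.06, 10.48 and 10.90 in KD1 cells and 11.11 and 11.10 in scrambled cells after retinoic acid, and 6.89 and 8.04 in KD2, 7.56 and 7.16 in KD1 and 8.35 and 8.54 in scrambled ESCs. The rise was 3.55 ± 0.28 in KD1 cells (SE, adjusted p = 1.8e-06) and 2.66 ± 0.33 in scrambled cells (SE, adjusted p = 7.77e-05). After retinoic acid the 2 lines overlapped, with a difference of -0.20 ± 0.28 (SE, adjusted p = 0.696). In ESCs every array labelled KD1 or KD2 lay below both scrambled arrays, also KD2 replicate 1, whose Smarcd1 value was near the scrambled level. The differences of -0.98 for KD2 and -1.09 for KD1 did not pass the test (adjusted p = 0.0827 and 0.131). Without the arrays labelled KD2 the KD1 difference was called.

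Ccnd3, cyclin D3, read 7.91, 8.08, 7.72 and 7.87 in KD1 cells and 7.96 and 8.28 in scrambled cells after retinoic acid, and 7.42 and 6.90 in KD1 and 6.83 and 6.40 in scrambled ESCs. It rose by 1.51 ± 0.41 in scrambled cells (SE, adjusted p = 0.0121), and the change in KD1 cells was 0.73 ± 0.35 (SE, adjusted p = 0.105, and 0.00383 without the KD2 arrays). Cdk4 read 12.23 and 12.14 in scrambled cells after retinoic acid, against 11.58 and 11.54 in scrambled ESCs, and rose by 0.63 ± 0.20 (SE, adjusted p = 0.0264). In KD1 cells Cdk4 read 11.93, 11.97, 11.84 and 11.82 after retinoic acid and 11.57 and 11.49 in ESCs, a change of 0.36 with adjusted p = 0.102, and 0.00621 without the KD2 arrays. Cdk6, the other kinase of the D-type cyclins, read 8.35, 7.54, 7.47 and 7.97 in KD1 cells after retinoic acid, against 8.78 and 8.73 in scrambled cells, and the difference was -0.92 ± 0.30 (SE, adjusted p = 0.0466). Its groups did not overlap, but the 4 KD1 arrays spread more widely than those of Ccne1. E2f1, the transcription factor that cyclin D and E kinases release, fell by 0.79 in KD1 cells (SE 0.20, adjusted p = 0.00629), reading 6.66, 6.69, 6.35 and 6.71 after retinoic acid and 7.52 and 7.28 in ESCs. Cdk2, the kinase of the E-type cyclins, had changes between -0.15 and 0.25 in the 5 comparisons of lines or treatments above, none called.

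**Figure D3:**
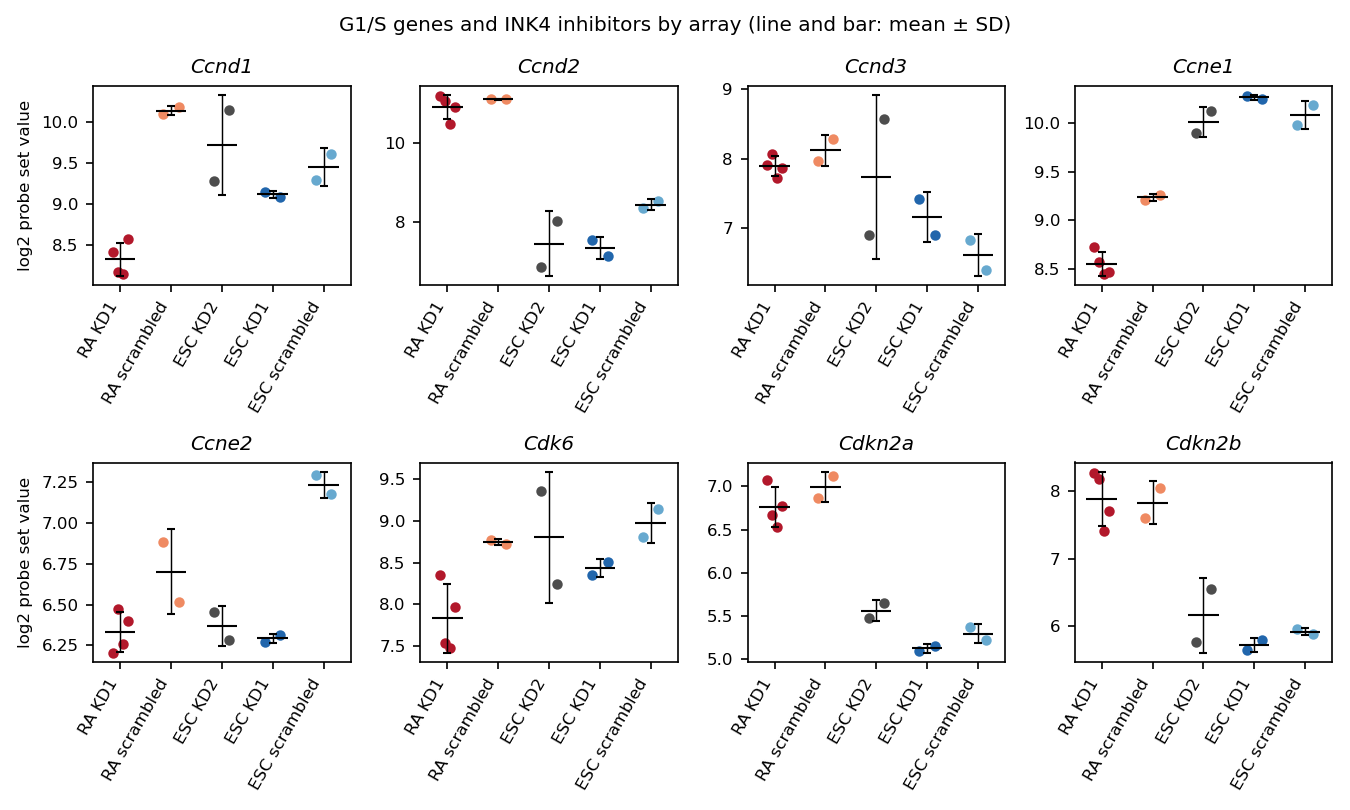
Each panel shows 1 gene, with a point for each array's log2 intensity in the 5 groups, a line for the group mean and a bar for its SD; RA stands for retinoic acid. Ccnd1 was lowest on the 4 KD1 arrays after retinoic acid, at 8.15 to 8.57, whereas Ccnd2, Cdkn2a and Cdkn2b were high after retinoic acid in both lines.

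Among the mitotic genes Cdk1 was the one called in the knockdown cells, lower after retinoic acid and in ESCs of both lines. After retinoic acid 1 of the 11 measured genes fell in KD1 against scrambled cells, and the median difference was -0.11, with 7 of 11 below 0. For 5 genes all KD1 arrays lay below the scrambled arrays and for 2, Ccna2 and Cdc20, above them, beside 27.5% and 26.5% of all tested genes. Cdk1, the kinase that drives entry into mitosis, read 8.23, 8.40, 8.38 and 8.21 in KD1 cells after retinoic acid, against 8.92 and 8.78 in scrambled cells, a difference of -0.54 ± 0.14 (SE, adjusted p = 0.0149). Its promoter, printed above, holds E2F, CHR and CCAAT words together. In ESCs it read 8.03 and 8.33 in KD2 and 8.10 and 8.07 in KD1 cells, against 8.84 and 9.04 in scrambled cells. It fell by 0.76 in KD2 (SE 0.16, adjusted p = 0.0128) and by 0.85 in KD1 cells (SE 0.16, adjusted p = 0.0198). No array labelled KD1 or KD2 reached the level of a scrambled array of the same treatment. These include KD2 replicate 1, whose Smarcd1 value was near the scrambled level.

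With retinoic acid 1 of the 11 mitotic genes rose and 1 fell in KD1 cells, and 1 rose and 2 fell in scrambled cells, beside 50.8% and 39.1% of all tested genes called. Without the arrays labelled KD2, 5 rose and 2 fell in KD1 cells, or 63.6% beside 64.0% of all tested genes, and 2 rose and 3 fell in scrambled cells, or 45.5% beside 54.5%. Bub1, a kinase of the spindle checkpoint, fell by 0.84 in KD1 cells (SE 0.13, adjusted p = 0.000276) and by 0.75 in scrambled cells (SE 0.15, adjusted p = 0.00247). It read 9.01, 9.14, 8.97 and 9.04 in KD1 and 9.35 and 9.17 in scrambled cells after retinoic acid, and 10.01 and 9.75 in KD1 and 10.04 and 9.97 in scrambled ESCs. Mki67, the proliferation antigen Ki-67, fell by 0.71 in scrambled cells (SE 0.21, adjusted p = 0.0207), with 8.96 and 8.78 after retinoic acid against 9.59 and 9.56 in ESCs. In KD1 cells it read 8.59, 8.91, 9.06 and 8.92 after retinoic acid and 9.37 and 9.31 in ESCs, a change of -0.47 ± 0.18 (SE, adjusted p = 0.0525). Foxm1, the transcription factor of the G2 and mitosis programme, was the mitotic gene called higher in both lines with all arrays. It gained 0.37 in KD1 cells (SE 0.12, adjusted p = 0.0186), with 7.15, 7.09, 7.13 and 7.10 after retinoic acid against 6.78 and 6.71 in ESCs. It gained 0.48 in scrambled cells (SE 0.13, adjusted p = 0.0145), with 7.12 and 7.11 against 6.59 and 6.69. With all arrays the remaining genes had no call in any of these 5 comparisons: cyclins Ccna2 and Ccnb2, the anaphase activator Cdc20, the mitotic kinases Plk1, Aurka and Aurkb, and topoisomerase Top2a. Aurkb had the widest retinoic acid changes among them, 0.60 in KD1 cells and 0.50 in scrambled cells, called without the arrays labelled KD2 (adjusted p = 0.00137 and 0.0109). Ccna2 (0.45), Aurka (0.31) and Plk1 (0.30) were then also called higher in KD1 cells and Mki67 lower, while in scrambled cells Cdc20 was called lower at -0.34.

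Of the 4 inhibitors, Cdkn2a and Cdkn2b rose with retinoic acid in both lines, and none of the 4 was called different between KD1 and scrambled cells by limma (0 of 4 at an unadjusted p under 0.05). Cdkn2b (p15-Ink4b), an inhibitor of Cdk4 and Cdk6, read 8.27, 8.18, 7.41 and 7.70 in KD1 and 7.61 and 8.06 in scrambled cells after retinoic acid, and 5.77 and 6.55 in KD2, 5.64 and 5.79 in KD1 and 5.95 and 5.88 in scrambled ESCs. It rose by 2.17 ± 0.27 in KD1 cells (SE, adjusted p = 4.45e-05) and by 1.92 ± 0.31 in scrambled cells (SE, adjusted p = 0.000522). Every retinoic acid array lay above every ESC array. Cdkn2a, the locus of p16-Ink4a and p19-Arf, read 7.07, 6.67, 6.53 and 6.78 in KD1 and 6.87 and 7.12 in scrambled cells after retinoic acid, and 5.48 and 5.65 in KD2, 5.09 and 5.16 in KD1 and 5.37 and 5.22 in scrambled ESCs. Its rises were 1.64 ± 0.16 in KD1 cells (SE, adjusted p = 9.12e-06) and 1.70 ± 0.19 in scrambled cells (SE, adjusted p = 3.84e-05). The probe set carries only the symbol, so its 2 products were not told apart.

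Cdkn2c (p18-Ink4c) read 4.54, 4.84, 4.79 and 4.94 in KD1 and 5.18 and 4.89 in scrambled cells after retinoic acid, and 4.25 and 4.05 in KD1 and 4.13 and 4.03 in scrambled ESCs. The ESC values lie below the filter level, and the gene entered the test only through the arrays where it is high, so these levels are given as a description and no size or test of its change is reported. Cdkn1b (p27-Kip1), which binds cyclin E and Cdk2, rose in KD1 cells by 0.72 ± 0.17 (SE, adjusted p = 0.0041), reading 7.07, 7.36, 7.71 and 7.60 after retinoic acid and 6.71 and 6.71 in ESCs. In scrambled cells it read 7.38 and 7.41 after retinoic acid and 7.30 and 7.25 in ESCs, a change of 0.13 ± 0.20 (SE, adjusted p = 0.658). The KD1 ESC arrays lay below both scrambled ESC arrays, with a difference of -0.56 ± 0.20 (SE, adjusted p = 0.216). The array holds another, dimmer probe set of the Cdkn1b symbol, which was not tested on its own. In scrambled cells that probe set read 5.86 and 6.05 after retinoic acid, against 5.32 and 5.53 in ESCs. In KD1 cells too, all its values after retinoic acid lay above those in ESCs. A rise of Cdkn1b in KD1 cells only thus depends on the probe set used. Between KD1 and scrambled cells after retinoic acid the 4 differences ran from -0.26 to 0.06, and the groups of each gene overlapped.

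The 2 arrays labelled KD2 disagreed on these genes more than on most of the array. Replicate 2 read higher than replicate 1 for 35 of the 38 genes, or 92.1%, beside 58.1% of all tested genes, and the exceptions were Ccne2, Cdk6 and Mki67. The median gap of replicate 2 over replicate 1 was 0.78, beside 0.13 over all tested genes. For the replication genes it was 0.79 and had 1 direction in 14 of 14. Replicate 1 was the lowest of the 6 ESC arrays for 26 genes, or 68.4%, beside 34.5% of all tested genes. Replicate 2 was the highest of them for 25 genes, or 65.8%, beside 37.0%. Mcm3, an MCM helicase subunit, read 9.93 and 11.04 on these arrays, against 10.39 and 10.32 in scrambled ESCs, and Ccnb2, cyclin B2, whose promoter is printed above, read 8.62 and 10.14, against 9.29 and 9.38. Cdc20 read 8.51 and 9.43, against 8.86 and 9.10. In these genes the group mean hides arrays on both sides of the control. Both KD2 arrays lay below both scrambled arrays in 8 of 38 genes and above them in 3, beside 22.2% and 18.4% of all tested genes.

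The calls changed with the KD2 array used, in fits where the lone KD2 array is assumed to vary like the arrays of the other groups. With KD2 replicate 2 alone, the array with the low Smarcd1 value, 10 members were higher and 3 lower than in scrambled ESCs, beside 34.4% of all tested genes called, a share like that of the members. With replicate 1 alone all 19 calls were lower, beside 30.5% of all tested genes called. Fewer members, and fewer of all tested genes, were called without ESC scrambled replicate 1 or 2, in fits that leave 1 array in that group. Against KD1 ESCs no member was called by limma in KD2 (4 at an unadjusted p under 0.05), beside 2.70% of all tested genes (0.508% higher and 2.19% lower). Those calls also changed with the KD2 array left out. The count in ESC KD1 against scrambled was 6 without either KD2 array, beside 8.14% of all tested genes. It was lower than with all arrays when 1 KD1 or scrambled ESC array was left out, as was the count over all tested genes.

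**Figure D4:**
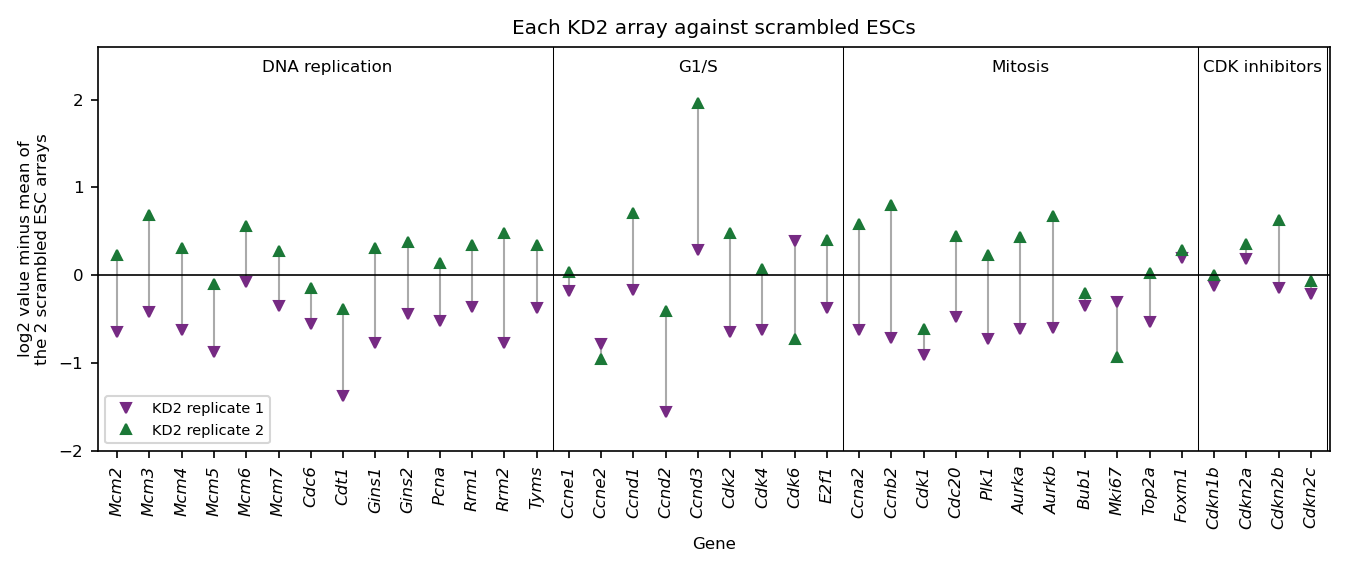
Each gene has a point for each of the 2 arrays labelled KD2, as the log2 difference from the mean of the scrambled ESC arrays, with genes grouped by role. Replicate 2 lies above replicate 1 for 35 of the 38 genes, and the medians are 0.29 for replicate 2 and -0.50 for replicate 1.

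For KD1 against scrambled cells after retinoic acid, the comparison with the most falls, 17 of the 38 genes were lower and 0 higher without the arrays labelled KD2, or 44.7%, beside 37.1% of all tested genes (18.6% lower and 18.5% higher). Added to the 8 above were Mcm2, Mcm4, Mcm6, Mcm7, Gins1, Gins2, Rrm2, Ccne2 and Cdk4. With RA scrambled replicate 1 or 2 left out fewer members, and fewer of all tested genes, were called, in fits that leave 1 array in that group. For the difference of the retinoic acid changes, the fit without the KD2 arrays called Gins1, Rrm1, Ccne1 and Ccnd1, all lower in KD1 cells, or 10.5%, beside 18.5% of all tested genes (8.28% lower and 10.2% higher). The count there was lower than with all arrays without either ESC KD1 array, ESC scrambled replicate 1 or either RA scrambled array. It was 1 without RA KD1 replicate 3 or 4, beside 5.7% and 6.04% of all tested genes. Fewer of all tested genes were also called in each of those fits than with all arrays. Calls of the retinoic acid change were 28 of 38 in KD1 cells without the KD2 arrays, with 13 risen and 15 fallen, beside 64.0% of all tested genes (36.6% risen and 27.4% fallen). In scrambled cells they were 22 of 38, with 11 risen and 11 fallen, beside 54.5% (31.7% risen and 22.8% fallen). The risen genes of both counts again include Cdkn2c, which passed the filter through the arrays where it is high. Fewer members than with all arrays were called in KD1 cells without ESC KD1 replicate 1. The same held in scrambled cells without any single array of either scrambled group. Over all tested genes fewer were called in those fits too.

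Other genes of the same pathways were taken from wider lists. After retinoic acid, 10 of 51 other replication genes were lower and 1 higher in KD1 against scrambled cells, with a median of -0.27, beside 11.5% of all tested genes lower and 11.2% higher. The largest of these changes were Dna2, a nuclease and helicase of Okazaki fragment processing, at -1.98, Orc1, the largest origin recognition subunit, at 0.94, and Mcm9, a helicase of recombination repair, at -0.80. Of 28 other G1/S genes, 6 were lower and 2 higher, with a median of -0.12, led by Skp2 (-1.11), the ubiquitin ligase subunit that marks p27-Kip1 for degradation, Mybl2 (0.99), a transcription factor of the cell cycle, and Rbl1 (-0.89), a relative of the retinoblastoma protein. Of 63 other mitotic genes, 3 were lower and 0 higher, with a median of -0.03: Ckap2 (-0.99), Aurkc (-0.55) and Ect2 (-0.55). Of 4 other inhibitors tested, Cdkn1c (p57-Kip2) fell, at -2.52 ± 0.28 (SE), and Cdkn2d (0.71) and Mdm2 (0.58) were higher. Leaving out the arrays labelled KD2 gave counts of 19 lower and 5 higher of the other replication genes, 11 lower and 3 higher of the other G1/S genes, and 9 lower and 3 higher of the other mitotic genes, beside 18.6% of all tested genes lower and 18.5% higher.

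Retinoic acid lowered more of the wider replication and mitotic lists than it raised, in both lines, whereas over all tested genes 29.4% rose and 21.4% fell in KD1 cells and 22.4% rose and 16.7% fell in scrambled cells. In KD1 cells 18 of 51 other replication genes fell and 3 rose, led by Pold4 (1.80), Mcm10 (-1.51) and Pole (-1.50), and 18 of 63 other mitotic genes fell and 9 rose, led by Aspm (-1.52), Cdca5 (-1.38) and Ect2 (-1.21). In scrambled cells 15 of the 51 replication genes fell and 1 rose, led by Orc1 (-1.89), Orc5 (-1.39) and Recql4 (-1.30), and 19 of the 63 mitotic genes fell and 3 rose, led by Cdca5 (-1.43), Kif18a (-1.04) and Knl1 (-1.01). Of the 28 other G1/S genes, 5 rose and 9 fell in KD1 cells, led by Mybl2 (-1.78), E2f6 (1.48) and Fbxo5 (-1.39), and 5 rose and 6 fell in scrambled cells, led by Mybl2 (-2.33), Myc (1.67) and E2f6 (1.31). In the fit without the KD2 arrays, 27 other replication genes fell and 5 rose in KD1 cells and 20 fell and 4 rose in scrambled cells. Of the other mitotic genes, 23 fell and 13 rose in KD1 cells and 22 fell and 9 rose in scrambled cells. Over all tested genes that fit gave 36.6% risen and 27.4% fallen in KD1 cells and 31.7% risen and 22.8% fallen in scrambled cells. Among other inhibitors Cdkn1c rose by 1.81 in KD1 and by 3.58 in scrambled cells, and the 2 changes differed by -1.78.

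In ESCs the wider lists held few calls. KD1 against scrambled gave Mcm9 at -1.06 (adjusted p = 0.00877) and E2f8, a repressor of the E2F family, at -0.79 (adjusted p = 0.0227). Of all tested genes 1.41% were lower there and 0.909% higher. Without the arrays labelled KD2, 7 other replication genes, or 13.7%, were lower in KD1 cells, beside 4.93% of all tested genes lower. Of those 7, 3 (Orc6, Gins3 and Gins4) are the 3 tested genes of the list on chromosome 8. Of the 4 other G1/S genes then lower, E2f4 and Tfdp1 lie on that chromosome, as does Ckap2 of 4 other mitotic genes. Arrays labelled KD2 gave 4 lower and 1 higher of the other replication genes, led by Mcm9 (-1.25), Orc6 (-0.94) and Prim2 (0.74). Of all tested genes 7.15% were lower and 2.88% higher on those arrays. The same arrays gave 1 lower and 3 higher of the other G1/S genes, led by Myc (1.24), Rb1 (1.19) and E2f2 (0.79). Rb1 lies on chromosome 14, whose median there was 0.27. Of the other mitotic genes, Plk4 (-0.69) and Pkmyt1 (-0.49) were lower, with the disagreement between those arrays described above.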

How the data were processed

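Total RNA was hybridised to 12 Affymetrix arrays. The deposited values are log2 expression values per probe set, made by the authors with RMA per the submitters' processing notes; its software version is not given in the sources used here. RMA scales all arrays to 1 distribution, so values show levels relative to the rest of each array, and log2 values of different probe sets were not set against each other. Arrays were grouped by their titles. Per gene, the probe set with the highest mean among those with 1 symbol was used, and genes above percentile 40 of their array on at least 2 arrays were tested (12988). limma 3.58.1 in R 4.3.3 fitted 1 mean per group over all 12 arrays (7 residual degrees of freedom), with lmFit and eBayes, for 7 comparisons. The number of arrays limits the precision. The script was tested on simulated data. Python 3.11.15 and pandas 2.3.3 described values and promoter words, and matplotlib 3.10.9 drew the figures.

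The members and gene lists were chosen with earlier results of these data known, and wider lists were written from general knowledge. Members called were named with all their array values, up to 4 rises and 4 falls for each role and comparison by size of change, and a few others below the threshold are named where the change was at least 0.5 or after their values were seen (Mcm3, Ccnb2, Cdc20, Cdk2, Ccna2, Aurka, Plk1 and the remaining replication genes). The 3 largest called members of each wider list are named. Alternatives changed the filter, scaling, probe set choice, spread model, threshold, replicate block and the arrays included. The main fit did not treat arrays with the same number in their titles as paired. Of 20 same-numbered pairs, 3 had deviations correlated above 0.1, and the correlations ran from -0.183 to 0.243. Some of these values repeat, because the replicates of the smallest groups deviate from their mean by equal and opposite amounts. The 20 pairs are therefore not separate checks and cannot decide whether the numbers pair the arrays.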

Additional observations from a re-analysis of the deposited data

Results flagged for a closer look

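Of the 38 members tested over the 4 KD1 arrays after retinoic acid, 2 had one array far from the rest by Dixon's criterion, which chance meets in about 1 of 20 groups. Mcm5 read 8.92 on replicate 3, with the other arrays at 8.96 to 8.97, so the gap is small on the log2 scale. E2f1 read 6.35 on replicate 3, with the other arrays at 6.66 to 6.71.

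The retinoic acid change of Ccne1 differed between KD1 and scrambled cells by -0.86 and that of Ccnd1 by -1.49, both past the test of the difference. For 4 of the 38 genes (Ccne1, E2f1, Ccna2 and Cdc20), or 10.5%, every KD1 array lay on 1 side of the scrambled arrays after retinoic acid and on the other side in ESCs, beside 9.27% of all tested genes, so the members' share is near the background. The fitted difference of the changes did not pass the test for 3 of them, at -0.44 for E2f1, 0.34 for Ccna2 and 0.35 for Cdc20.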

How the results depend on the processing

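With cyclic loess, median centring, an intensity trend, a mean of the probe sets, a filter at percentile 60 or no filter, each count stayed within 1.5 times its value, and after retinoic acid KD1 against scrambled gave 7 to 12 falls and 0 rises. The order of values below is KD2 against scrambled ESCs, KD1 against scrambled ESCs, retinoic acid in KD1, retinoic acid in scrambled, retinoic acid KD1 against retinoic acid scrambled, and the difference of changes. With an adjusted p under 0.01 the counts were 1, 0, 14, 7, 3 and 0. The shares of all tested genes were 3.65%, 0.477%, 36.2%, 25.7%, 13.5% and 3.08%. With at least a 2-fold change the counts were 0, 0, 4, 4, 1 and 1, beside 4.6%, 1.39%, 23.5%, 20.4%, 9.24% and 6.57%. Array weights gave both KD2 arrays 0.137 and the others 1.165 or more. The counts were then 0, 6, 28, 21, 17 and 4, beside 0.0462%, 8.84%, 66.3%, 53.2%, 38.4% and 19.6% of all tested genes. With the compared arrays only they were 0, 3, 28, 20, 16 and 4, beside 0%, 2.76%, 64.2%, 49.3%, 36.4% and 18.5%. With the KD2 arrays left out they were 6, 28, 22, 17 and 4 from the second on, beside 8.14%, 64.0%, 54.5%, 37.1% and 18.5%. The 28 and the 22 include Cdkn2c. With RA KD1 arrays 1 and 2 alone, KD1 against scrambled gave 0 in ESCs and 3 after retinoic acid, and the difference 0. The shares of all tested genes were 0.839%, 13.7% and 4.38%. With arrays 3 and 4 alone the counts were 0, 3 and 1, beside 0.885%, 16.3% and 6.19%.

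The replicate block gave 1, 0, 13, 9, 1 and 0, beside 5.2%, 0.262%, 38.6%, 32.7%, 12.5% and 3.44% of all tested genes. Whether the numbers pair the arrays is not known, so what these lower counts mean is not known either. With single arrays left out the counts ranged from 0 to 19, 0 to 6, 11 to 28, 7 to 22, 2 to 17 and 0 to 4, and from 0 to 19 for KD2 against KD1. Ccnd3 in KD2 against KD1 ESCs had 0.58, not called, and reversed to -0.26 without KD2 replicate 2 (1.41 without KD2 replicate 1). The causes of these shifts were not tested.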

Other observations

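Several regulators outside the 39 genes were called in these comparisons. Mybl2, a member of the complex that activates mitotic genes, fell by 1.78 in KD1 cells and fell by 2.33 in scrambled cells with retinoic acid, and it was higher by 0.99 in KD1 than in scrambled cells after treatment. Orc1 fell by 1.89 in scrambled cells with retinoic acid and was higher by 0.94 in KD1 than in scrambled cells after it. Both comparisons use the scrambled retinoic acid arrays, so these values are not independent. The growth regulator Myc rose by 1.67 in scrambled cells with retinoic acid, and it was higher by 1.24 in arrays labelled KD2 than in scrambled ESCs. The retinoblastoma gene Rb1 was higher by 1.19 in arrays labelled KD2 than in scrambled ESCs and by 0.97 than in KD1 ESCs. Rb1 lies on chromosome 14, whose 451 tested genes had medians of 0.27 and 0.32 in those comparisons. The part of that shift in its values was not tested. E2f6, a repressor of the E2F family, rose by 1.48 in KD1 and by 1.31 in scrambled cells with retinoic acid.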
